A study of Mus musculus with 3 samples.

Results

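The transcripts described here are abundant retained-intron transcripts of mouse macrophages, that is, transcripts to which the annotation gives the type retained_intron and that reached 5 TPM or more in each of 3 libraries. TPM is a level scaled to the transcript's length and to the library's total, so levels of different transcripts can be compared on it. They were selected on these TPM values, from the first of the quantifications the authors deposited, so their being abundant is a description and not a result. In all, 4164 of the 21848 annotated retained-intron transcripts met the rule, or 19.1%, out of 141767 transcripts of every type. They are called members below. The same rule was met by 4990 transcripts of the type protein_coding, or 8.49% of that type. The members belonged to 2343 genes, 24.9% of the 9421 genes with an annotated retained-intron transcript.

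The 3 libraries form a single group. They were made from macrophages grown out from the bone marrow of C57BL/6J mice and given 100 ng/ml Lipid A, the part of lipopolysaccharide that the receptor TLR4 recognises, for 10 min. Total RNA of the chromatin fraction, the RNA that stays with chromatin when nuclei are fractionated, was sequenced after depletion of ribosomal RNA. The labels name biological replicates 1, 2 and 3 with starting amounts of 1 µg, 250 ng and 500 ng, give them the same donor entry, and name no age, transgene or deletion. No unstimulated library, no other time and no other cell fraction was used here, so no value below is a response to Lipid A. Because nothing in the labels says that the replicates came from separate animals, the spreads below may be partly technical.

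All 10 macrophage markers checked were at 1 TPM or more in every library, with mean gene levels from 16.6 to 594 TPM. None of the markers of T cells, B cells, neutrophils, red cell precursors or fibroblasts reached 1 TPM in all 3 libraries, and the highest mean among them was 0.433 TPM. The transcript tables held 15676169, 15984982 and 14371002 estimated counts in replicates 1, 2 and 3. The members held 11.5%, 13.0% and 11.4% of these counts, 12.0% ± 0.895 (SD, n = 3). They also held 69.5%, 70.0% and 71.5% of the TPM of all retained-intron transcripts.

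Introns are removed from a transcript by the spliceosome, which recognises a 5′ splice site that mostly begins with GT and a 3′ splice site that mostly ends with AG. An intron that stays in an otherwise processed transcript is called retained. Such transcripts tend to stay in the nucleus or to be degraded after export, and retention in genes for splicing factors is known as a way in which these genes limit their own output. In chromatin RNA, transcripts whose introns have not yet been removed are plentiful as well. The tables list annotated transcripts only and no unspliced precursor, so for a base inside an intron, reads of a precursor and of a retained-intron transcript cannot be told apart.

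The introns held whole by a few members show what these transcripts keep. The first set gives the complete intron, from the transcript's sequence in GENCODE M21 (mm10, GRCm38), for 3 abundant members whose intron is short and lies between coding exons. Fth1-202 holds intron 3 of the 4 introns of Fth1-203 (232 bases, plus strand), Tcirg1-203 holds intron 5 of the 19 of Tcirg1-204 (167 bases, minus strand) and Cyp27a1-203 holds intron 4 of the 8 of Cyp27a1-201 (112 bases, plus strand). Sequences run 5′ to 3′ on the transcript's strand, and capitals mark the GT and AG at the intron's ends.
Fth1-202 intron 3 (chr19:9984328-9984559): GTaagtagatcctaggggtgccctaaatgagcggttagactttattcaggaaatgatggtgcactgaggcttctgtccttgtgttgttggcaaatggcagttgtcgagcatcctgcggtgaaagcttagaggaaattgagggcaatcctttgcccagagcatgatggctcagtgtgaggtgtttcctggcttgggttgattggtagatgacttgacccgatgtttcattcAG
Tcirg1-203 intron 5 (chr19:3903173-3903339): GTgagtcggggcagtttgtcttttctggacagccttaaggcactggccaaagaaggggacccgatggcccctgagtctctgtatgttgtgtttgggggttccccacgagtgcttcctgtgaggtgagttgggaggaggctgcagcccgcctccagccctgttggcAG
Cyp27a1-203 intron 4 (chr1:74735752-74735863): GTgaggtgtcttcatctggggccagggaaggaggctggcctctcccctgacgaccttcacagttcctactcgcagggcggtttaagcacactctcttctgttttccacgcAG

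The second set gives the splice sites alone, for members whose values are described below and whose introns are longer or were singled out by share. Some of these members hold further whole introns that are not shown. The 5′ window holds the last 3 exon bases and the first 6 intron bases, the 3′ window holds the last 20 intron bases and the first 3 exon bases, and capitals mark GT and AG. The introns are Rsrp1-204 intron 3 (chr4:134925433-134926734, plus strand, 1302 bases), Srsf5-212 intron 5 (chr12:80947866-80949094, plus strand, 1229 bases), Clk1-204 intron 3 (chr1:58420212-58421082, minus strand, 871 bases), Clk1-204 intron 4 (chr1:58419734-58420120, minus strand, 387 bases), Fabp5-202 intron 2 (chr3:10015144-10015471, plus strand, 328 bases), Cd83-202 intron 1 (chr13:43785251-43785345, plus strand, 95 bases), Dusp1-204 intron 3 (chr17:26506651-26506984, minus strand, 334 bases), Bbs10-202 intron 1 (chr10:111298908-111299212, plus strand, 305 bases) and Tmem258-202 intron 2 (chr19:10206534-10207163, plus strand, 630 bases).
Rsrp1-204 intron 3, 5′ end: gagGTaagt
Rsrp1-204 intron 3, 3′ end: aaaattctcttcctctttAGcat
Srsf5-212 intron 5, 5′ end: cagGTttgt
Srsf5-212 intron 5, 3′ end: cataattgtcttgtgttaAGgat
Clk1-204 intron 3, 5′ end: gggGTatga
Clk1-204 intron 3, 3′ end: cgcccacttgacgtgtccAGaag
Clk1-204 intron 4, 5′ end: gatGTatag
Clk1-204 intron 4, 3′ end: taattattcctcttttttAGatg
Fabp5-202 intron 2, 5′ end: gagGTcagc
Fabp5-202 intron 2, 3′ end: actaccctgtatttttgcAGacg
Cd83-202 intron 1, 5′ end: gcgGTacgg
Cd83-202 intron 1, 3′ end: ctcccccctctctcttgtAGcct
Dusp1-204 intron 3, 5′ end: tagGTaaat
Dusp1-204 intron 3, 3′ end: cccataactttattttccAGact
Bbs10-202 intron 1, 5′ end: cagGTacct
Bbs10-202 intron 1, 3′ end: ttttttcccttcctatacAGgat
Tmem258-202 intron 2, 5′ end: cgtGTatcc
Tmem258-202 intron 2, 3′ end: tccttagcagtcctacctAGtta

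These windows carry GT and AG throughout and differ in the bases beside them. The 5′ window of Rsrp1-204 reads GT followed by aagt, as in Fth1-202, while that of Srsf5-212 reads GT followed by ttgt and that of Cd83-202 GT followed by acgg. The intron of Tmem258-202 begins with the letters G and then TATCCTT at intron positions 2 to 8, which are the letters of the 5′ splice site of the minor, U12-type introns. Those 7 letters at positions 2 to 8 after a first G or A were found, on the transcript's strand, in 8 of the 2123 distinct introns of 30 bases or more held whole by members, or 0.377%, and in 0.47% of the 6807 held by the other retained-intron transcripts. A match is a description of letters and not of a splicing event.

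Most members were not a coding transcript with 1 extra intron. Only 1349 members, or 32.4%, held an intron of a protein_coding transcript of their gene from end to end, against 29.0% of the 17684 other retained-intron transcripts. The more common form was a model that begins or stops inside an intron: 2414 members ended in one and 1641 started in one, and 4102 had at least 1 of the 3 features. The median member was 1171 bases long, against 849 for the others. A median of 51.1% of its bases lay outside the exons of every other kind of transcript of the gene, against 38.3%. Such bases are thus a large part of the models, and 16 members had none. They are not the same as bases in introns of the coding transcripts. Myo5a-211 starts in such an intron and has none of them.

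The 1349 members with a whole intron had a median share of 20.7% of their gene's TPM. The 1456 that held none but ended in an intron had 23.5%, the 849 that started in one 19.4% and the 448 that did both 17.2%. In the second quantification of the same reads these medians were 16.4%, 19.2%, 17.5% and 15.7%. Models that end in an intron were thus not lower in share than those with a whole intron in either table.

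The introns held whole by members had a median length of 327 bases and a median GC content of 49.0%, against 255 bases and 52.0% in the other retained-intron transcripts. Introns of 300 or fewer bases made up 47.4% and 54.5%. Among those of members, 81.1% were internal introns of the coding transcript, 10.7% were first introns and 7.68% last introns, and 91.4% lay between coding exons. GT and AG ended 2078 of them and GC and AG 33. Introns of 1 gene are not independent and the members were chosen by level, so these differences are given without a test.

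The members' mean TPM had a median of 11.1 and a middle range of 8.16 to 17.5. Under 10 TPM lay 1776 members, and 38 reached 100. Whether a library is high or low in TPM for most members depends on how TPM is scaled, as given below with its values, so the order of libraries is stated here for the deposited TPM only. The highest was Rsrp1-204 (chr4:134923592-134927671, plus strand, 3051 bases), a transcript of the gene for an arginine- and serine-rich protein, with 858, 576 and 497 TPM in replicates 1, 2 and 3, or 644 ± 189 TPM (SD, n = 3). It held 74.1%, 73.2% and 68.6% of its gene's TPM, so in each library it was the main product listed for the gene. The second quantification gave it 564, 418 and 381 TPM and shares of 62.3%, 62.0% and 52.2%.

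The other places among the 10 most abundant were filled by members of 7 genes. Ctsb-203, from the gene of the lysosomal protease cathepsin B, was at 411, 396 and 286 TPM and held 53.7%, 69.2% and 64.2% of the gene. Tcirg1-203, from the gene of a membrane subunit of the proton pump that acidifies lysosomes, was at 333, 222 and 202 TPM with 28.1%, 24.5% and 25.7%. This member has no bases outside the other transcripts of its gene. Gpnmb, a glycoprotein of lysosome-rich macrophages, had 2 of the 10: Gpnmb-204 with 454, 273 and 186 TPM and Gpnmb-205 with 365, 315 and 217 TPM. Both of its members were highest in replicate 1 and lowest in replicate 3. Sirpa-212, from the gene of the receptor for CD47, went the other way, with 261, 357 and 319 TPM and replicate 1 lowest.

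Sat1 encodes the enzyme that acetylates spermidine and spermine for their breakdown, and Sat1-205 was at 481, 370.5 and 315 TPM with shares of 41.5%, 45.8% and 45.1%. Fth1-202, from the gene of the ferritin heavy chain that stores iron, was at 353, 293 and 191 TPM and held 35.6%, 36.7% and 40.5%. With Fth1-207 and Fth1-208, the Fth1 members together held 96.3% ± 0.191 (SD, n = 3) of the gene. Lilrb4a, an inhibitory receptor of myeloid cells, had Lilrb4a-206 at 448, 418 and 360.0 TPM and Lilrb4a-209 at 260.0, 326 and 263 TPM. Both overlap the gene entry Gm49339 on the same strand, and Lilrb4a-209 also overlaps Gm40645 on the other strand. Lilrb4a-209 has no bases outside the other transcripts of its gene. Lilrb4a and its neighbour Lilr4b are near-identical copies, and Fth1 has processed copies elsewhere, so how reads were split among copies is uncertain for them. In the plot of the 10 most abundant members the shares of Fth1-202 and Tcirg1-203 lay within a few points of each other across libraries, while the TPM values were spread more widely.

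**Figure D1:**
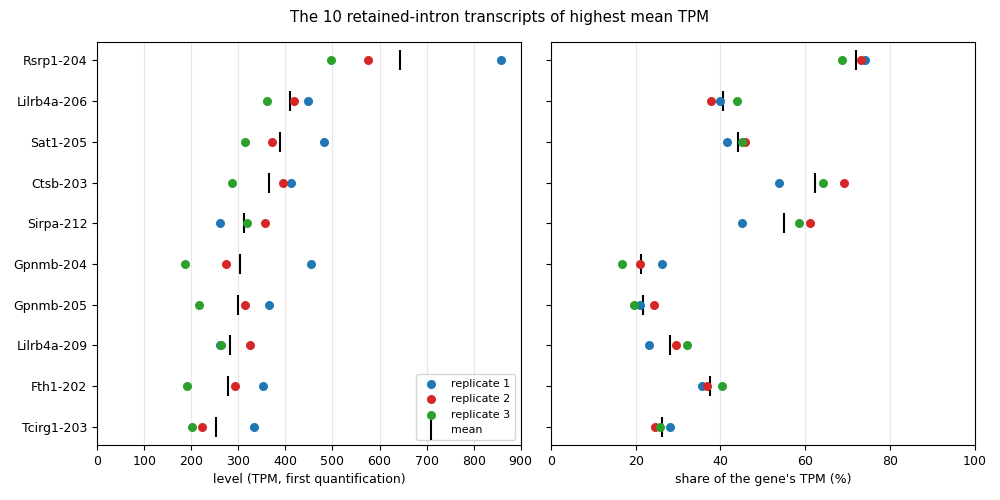
Level in TPM (left) and share of the gene's TPM in percent (right) of the 10 members with the highest mean TPM; each point is 1 library and the black bar is the mean of 3. Rsrp1-204 lay highest in all 3 libraries, between 497 and 858 TPM, and held the highest share of the 10 in every library.

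A member's share is its TPM as a percent of the summed TPM of all transcripts of its gene. The median over members of the mean share was 20.9%, with a middle range of 13.4% to 31.8%. By library the median was 19.7%, 21.7% and 20.9%, a spread of 1.01 points (SD, n = 3). The member was the most abundant transcript of its gene by mean TPM in 1330 cases, or 31.9%. A share of 50% or more in every library was held by 187 members, and a share under 10% in every library by 414. Computed from estimated counts, in which long transcripts weigh more, the median share was 12.5% and 281 members held 50% or more. For 2 members the annotation lists no other transcript of the gene, so their share is 100% by construction. In 5-point bins the shares were most often between 10% and 15%, with 728 members there, and the histogram has a long tail to the right.

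**Figure D2:**
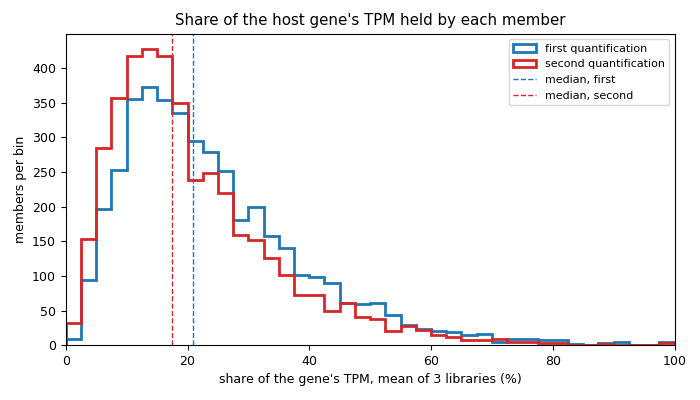
Number of members (vertical axis) by mean share of their gene's TPM in percent (horizontal axis) in the first and the second quantification; dashed lines are the medians, 20.9% and 17.4%. Both distributions have 1 peak and a tail to 100%, and the second lies lower.

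The highest shares, among genes whose protein_coding transcripts summed to 1 TPM or more, were found in genes of varied function. Neu1-202, from the gene of the lysosomal sialidase, held 86.9%, 94.7% and 93.1% at 31.3, 21.6 and 22.4 TPM. Cd83-202, from the gene of a surface marker of activated antigen-presenting cells, held 93.8%, 90.7% and 89.5%, while its level was 30.6, 11.5 and 9.15 TPM. The share stayed within 5 points while the level in replicate 1 was far above that in the other two. Mrps26-201 held 92.8%, 86.4% and 94.0%, for a protein of the small mitochondrial ribosome subunit, and Tap2-202 held 87.3%, 91.0% and 93.7%, for a subunit of the peptide transporter of antigen presentation.

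Slc25a37-203, from the gene of the mitochondrial iron importer mitoferrin-1, held 88.8%, 91.1% and 85.9% at 31.4, 22.5 and 19.3 TPM. Tmem132a-203 held 92.6%, 90.8% and 85.7%, Ubl3-205 72.2%, 84.7% and 88.2% and Smim3-202 85.5%, 83.3% and 79.0%. Exons of Mrps26-201, Tap2-202, Slc25a37-203 and Tmem132a-203 overlap genes on the other strand. Their shares are therefore uncertain unless counting used strand. The 8 members named here and in the preceding paragraph kept a share above 72% in each library, which their choice by share fixes. The mean share of each of the 8 was lower in the second quantification: 46.2% ± 9.66 (SD, n = 3) for Tap2-202, 56.2% ± 6.74 (SD, n = 3) for Slc25a37-203 and 48.3% ± 4.93 (SD, n = 3) for Ubl3-205, but a nearly equal 87.8% ± 1.27 (SD, n = 3) for Tmem132a-203, and 84.3% ± 4.86 (SD, n = 3) for Cd83-202. Bbs10-202, whose splice sites are shown above, came from a gene whose protein_coding transcript summed to under 1 TPM (0.82); Bbs10 encodes a chaperonin-like protein of primary cilia. It was at 43.0, 46.1 and 34.6 TPM with shares of 97.5%, 97.6% and 99.3%.

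The other members whose splice sites or introns are shown above were chosen after their values were seen. Fabp5-202, from the gene of a fatty acid-binding protein, was at 176, 152 and 93.4 TPM and held 76.2%, 75.5% and 71.7%. Besides the intron 2 shown, it holds intron 1 of its coding transcript, of 2252 bases. Cyp27a1-203, from the gene of the mitochondrial sterol 27-hydroxylase, was at 122, 83.8 and 66.4 TPM with 53.8%, 53.9% and 49.6%, so it held about as much of the gene's TPM as all its other transcripts together. Tmem258-202 was near the threshold, at 8.25, 6.83 and 5.07 TPM, but held 75.6%, 87.3% and 84.5% of a gene that encodes a subunit of the oligosaccharyltransferase. The second quantification gave it 5.73, 6.13 and 4.82 TPM and 58.6%, 63.3% and 60.3%.

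The 5 lowest shares were under 3% in every library. Lilr4b-205 held 1.08%, 1.98% and 2.52%, Mbnl1-206 1.50%, 2.19% and 2.37% and Myo5a-212 1.91%, 2.15% and 2.10%. Mbnl1 encodes a splicing regulator and Myo5a a myosin motor. Nisch-223 held 2.76%, 2.27% and 1.74% and Zeb2-209 2.98%, 2.04% and 2.05%. Zeb2 encodes a transcription factor of myeloid cells, and another of its members, Zeb2-204, held 17.7%, 17.9% and 18.5%. Both of these Zeb2 members overlap Zeb2os on the other strand, and Lilr4b-205 overlaps Gm49339 on the same strand.

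Many genes held several members. Of the 2343 genes, 1343 had 1, 551 had 2, 449 had 3 or more and 82 had 5 or more. The summed share of a gene's members had a median of 41.5%, and it reached 50% in every library in 592 genes and 90% in 14. Tecpr1, a gene of autophagosome maturation, had the most, 10 members, which together held 73.9% ± 1.61 (SD, n = 3) of its TPM. Its members Tecpr1-209 and Tecpr1-204 differed in spread, with 70.6, 11.8 and 34.1 TPM for the former and 34.9, 39.5 and 36.2 TPM for the latter. Tecpr1-209 has no bases outside the other transcripts of its gene, so its level rests on how shared reads were assigned. Tecpr1-204 has 39.4% such bases.

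Eif4a2, an RNA helicase of translation initiation, and Hnrnpk, an RNA-binding protein, had 9 members each, holding 64.8% ± 1.67 (SD, n = 3) and 61.8% ± 2.55 (SD, n = 3). Snrnp70, the U1 snRNP protein that takes part in 5′ splice site recognition, had 8 members with 78.2% ± 5.44 (SD, n = 3), in summed TPM of 236, 177 and 159 out of gene TPM of 317, 209.6 and 209. Rbm5 and Rbm39, both splicing regulators, had 8 and 7 members with 68.8% ± 5.07 (SD, n = 3) and 52.4% ± 1.35 (SD, n = 3). Members of 1 gene can share bases, so they are not separate measurements of retention.

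Gene groups were read against a common background. Among genes with an annotated retained-intron transcript and a gene level of 10 TPM or more in every library, 2293 of 3759, or 61.0%, held at least 1 member. The threshold of 10 TPM was chosen after values had been seen. The genes with a member had a median of 3 annotated retained-intron transcripts and a median gene level of 43.9 TPM, and those without had 2 and 18.7 TPM. Genes with a member were thus higher and had more models, and the part of level and model number in each count below was not tested.

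Of the genes of SR splicing factors with a level of 10 TPM, 10 of 10 held a member, 22 members in all. SR proteins bind exons and help the spliceosome to choose sites. Their members had a median share of 23.1% against 20.9% for all members, and the summed share of a gene ranged from 22.2% to 82.4%. Srsf5-212 was highest, at 169.8, 163 and 201 TPM with 33.1%, 32.8% and 35.3% of the gene. It has no bases outside the other transcripts of its gene, so its level rests on how shared reads were assigned. Srsf2-203 was at 147, 112 and 109 TPM with 56.1%, 56.0% and 59.7%, but its exons overlap the gene Mettl23 on the other strand, and whether counting used strand was not given in the sources used here. Srsf6-204 held 47.3%, 51.2% and 51.8% and Srsf7-207 42.0%, 40.0% and 45.6%. The summed share was highest in Srsf11, with 6 members and 82.4% ± 2.26 (SD, n = 3). Srsf3-204 held a steady 29.5%, 32.7% and 31.8%, whereas Srsf1-206, which overlaps Gm11508 on the other strand, held 29.8%, 15.0% and 21.7%.

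The kinases that phosphorylate SR proteins held members in 8 of 8 genes, with 24 members, a median share of 13.9% and a median summed share of a gene of 46.6%. Clk1-204, which holds introns 3, 4 and 6 of the coding transcript, was at 53.7, 49.5 and 43.5 TPM with 22.9%, 25.3% and 23.1% of the gene. The splice sites of its introns 3 and 4 are shown above. Clk1 had 6 members that summed to 70.1% ± 3.74 (SD, n = 3), and Clk4 had 5 with 57.3% ± 2.27 (SD, n = 3). Clk1 and Clk4 each held over 50% of their TPM in members in every library. Dyrk1a-204 held 29.6%, 47.5% and 40.1% in the first quantification and 16.3% ± 4.55 (SD, n = 3) in the second.

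Among hnRNP genes, whose proteins bind nascent RNA and often oppose SR proteins, 16 of 18 held a member, and the 2 without were Hnrnpd and Hnrnpr. Hnrnpa2b1-208 was highest at 156, 234 and 208 TPM with 23.7%, 29.9% and 26.0%. The group's 41 members had a median share of 15.0%, against 20.9% for all members. The summed share of a gene had a median of 37.1%, against 41.5% for all genes with a member, and ranged from 13.1% to 82.4%. Hnrnpl lay near the top of that range, with 5 members that held 82.2% ± 2.43 (SD, n = 3) of the gene. Of the core spliceosome genes at 10 TPM, 23 of 26 held a member, and Prpf3, Prpf8 and U2af1l4 had none. With Snrpd3, a gene under 10 TPM, they gave 73 members with a median share of 13.2%. Srrm2-209, from a gene of a large SR-related protein, was at 109, 83.7 and 65.9 TPM, and Son-213, from the gene of a nuclear speckle protein, at 59.1, 87.6 and 97.4 TPM. The level of Son-213 was lowest in replicate 1 and its share followed the same order, 23.3%, 30.7% and 38.5%. Exons of Son-213 overlap the gene Donson on the other strand, so its values are uncertain unless counting used strand. Rbm39-205 held a near-constant 10.8%, 10.7% and 10.7%.

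Immediate early genes are transcribed within minutes of a stimulus and are mostly short. Of those at 10 TPM with a retained-intron transcript, 2 of 3 held a member and Sgk1 did not. With Dusp2, which was under 10 TPM in at least 1 library, they gave 4 members: Dusp1-203, Dusp1-204, Dusp2-202 and Klf6-202. Dusp1 and Dusp2 encode phosphatases that inactivate MAP kinases. Dusp1-204 was at 59.1, 41.1 and 20.1 TPM with shares of 52.3%, 55.3% and 49.7%, and Dusp1-203 at 52.5, 32.5 and 19.6 TPM with 46.5%, 43.6% and 48.3%, so together they held nearly all of Dusp1, 98.6% ± 0.48 (SD, n = 3). Dusp2-202 was at 30.4, 10.4 and 5.44 TPM, and its share was 65.1%, 65.7% and 67.2%. Its level in replicate 1 was far above that in replicate 3, and the share was the same within a few points. Klf6-202, from the gene of a zinc finger transcription factor, differed in both, with 43.8, 29.9 and 11.7 TPM and 52.3%, 42.8% and 26.3%.

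Of the primary NF-kB target genes, 7 of 12 held a member, against 61.0% of all such genes, and Birc2, Nfkb2, Nfkbia, Pim1 and Tnfaip3 had none. Tnfaip2-207 was highest at 90.5, 46.7 and 39.2 TPM with 21.7%, 18.6% and 17.2%, and its exons overlap Gm40578 on the other strand. Icam1-202, from the gene of an adhesion molecule for leukocytes, held 52.5%, 59.5% and 56.7% at 15.4, 8.11 and 9.31 TPM. Nfkb1, which encodes the NF-kB subunit precursor p105, had 4 members, of which Nfkb1-204 was highest with 21.4, 18.2 and 21.4 TPM and 31.0%, 36.3% and 41.1%. Without unstimulated libraries, these levels cannot be compared with a resting state.

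In the TLR4 pathway itself, 12 of 17 genes held a member, and Ikbkg, Irak2, Irak4, Mapk3 and Mapk8 had none. Cd14-202, from the gene of the co-receptor that hands lipopolysaccharide to TLR4, was at 86.9, 33.5 and 38.4 TPM and held 58.6%, 63.9% and 67.1%. Ikbke encodes a kinase that acts on interferon regulatory factors, and Ikbke-205 was at 97.7, 67.4 and 56.6 TPM with 25.4%, 24.8% and 21.1%. Among interferon-stimulated genes 13 of 17 held a member. Parp14-202 was at 91.9, 43.5 and 50.2 TPM and Oasl2-204 at 60.1, 24.8 and 21.1 TPM, both highest in replicate 1. Parp14-202 overlaps an exon of Gm49730 on the same strand. Stat2, a transcription factor of the interferon response, had 6 members with a summed share of 63.1% ± 2.43 (SD, n = 3).

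Every lysosomal gene with a retained-intron transcript, 23 of 23, held a member, 53 in all with a median share of 17.2%. Ctsa, a protective carboxypeptidase, had 7 members with 70.0% ± 5.09 (SD, n = 3) of its TPM, Ctsh had 5 with 76.0% ± 8.18 (SD, n = 3) and Grn, the gene of progranulin, had 5 with 51.4% ± 2.78 (SD, n = 3). Ctsd-203, for cathepsin D, was at 133, 114 and 61.7 TPM with 28.0%, 32.1% and 26.0%. Among genes of macrophage identity 11 of 12 held a member, Apoe being the one without, and the median share was 27.9%. Trem2-203, for a lipid receptor of macrophages and microglia, was at 74.5, 92.2 and 63.1 TPM, and its share of 50.7%, 82.3% and 65.7% was highest in replicate 2.

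Antigen presentation genes gave 14 members from 7 genes. At a gene level of 10 TPM 6 of 9 held a member, and H2-DMa, Psmb10 and Tapbp did not. H2-D1-204 was at 117, 66.0 and 66.9 TPM and H2-K1-214 at 126, 28.2 and 29.3 TPM; both belong to class I genes with close copies, so their counts are uncertain. H2-K1 had 6 members whose summed share was 66.8% ± 0.662 (SD, n = 3), while H2-K1-214 alone held 22.2%, 11.4% and 10.6%. The share of this member thus moved more than the sum.

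Genes of the cytoskeleton and of translation also held members. In the actin cytoskeleton group 20 of 23 genes did, with 48 members. Actb-204 was at 124, 138 and 40.4 TPM with 33.1%, 39.1% and 32.5%, Actb-205 at 112, 101 and 36.6 TPM and Actg1-209 at 70.5, 59.4 and 24.2 TPM. All 3 of these were lowest in replicate 3 in the deposited TPM. Among translation factors 11 of 16 genes held a member, and Eif2s2, Eif3b, Eif3d, Eif3e and Eif3g did not. Eef1a1-203, for the factor that brings aminoacyl-tRNA to the ribosome, was at 54.3, 43.8 and 27.3 TPM with 18.4%, 19.2% and 19.5%.

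The introns of snoRNA host genes contain small nucleolar RNAs, which guide modification of ribosomal RNA, and 22 of 26 of these genes held a member. Rpl3-204, for a protein of the large ribosomal subunit, was at 64.8, 49.2 and 45.0 TPM with 42.4%, 41.1% and 50.4%. Gas5, a long non-coding snoRNA host, had 7 members, which together held 71.8% ± 1.23 (SD, n = 3). The highest of them, Gas5-218, was at 21.0, 25.5 and 20.2 TPM. Exons of Gas5-218, Gas5-222 and Gas5-205 contain small RNA genes, among them Snord78. Whether reads of these small RNAs entered the members' levels was not tested. The nuclear long non-coding RNAs had 9 members in 2 of 2 genes. Over all members, 72 had an annotated small RNA gene inside an exon, or 1.73%, against 0.893% of the other retained-intron transcripts. The highest of them were Ftl1-205 at 277, 98.2 and 67.3 TPM, Ftl1-206 at 137, 93.5 and 59.6 TPM and Nrp1-203 at 65.1, 74.2 and 64.4 TPM; Ftl1 encodes the ferritin light chain and Nrp1 the co-receptor neuropilin-1. Both Ftl1 members overlap Gm22133, and Nrp1-203 overlaps Mir1903.

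Of the chromatin regulators, 11 of 20 held a member, which is not far from the background of 61.0%, and Crebbp, Hdac1 and Hdac3 were among the 9 without. Ogt-204, for the enzyme that attaches N-acetylglucosamine to nuclear proteins, was at 80.4, 64.1 and 53.7 TPM with 20.3%, 23.7% and 21.8%. Brd2-204, for a reader of acetylated histones, was at 38.5, 33.4 and 24.6 TPM. Of the glycolytic enzymes 7 of 11 held a member, and Eno1, Hk1, Ldha and Pfkl did not. Pkm-205 was at 29.8, 28.6 and 21.8 TPM with a steady 33.9%, 33.6% and 33.3% in the first quantification. In the second its share was lower, at 16.2%, 13.6% and 14.1%. Pkm-205 also overlaps an exon of Gm49759 on the same strand. In the stress group 6 of 9 did: Ddit3-202 held 60.7%, 63.6% and 55.4% and Atf4-203 55.3%, 63.1% and 52.4%, both transcription factors of the integrated stress response, and Sqstm1-207, for an autophagy receptor, was at 46.2, 33.8 and 23.7 TPM. Ddit3-202 overlaps an exon of another gene entry named Ddit3 on the same strand. Its share counts its own entry only, and reads within the overlap cannot be told apart. The housekeeping group had 15 of 17, without Ldha and Ywhaz.

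**Figure D3:**
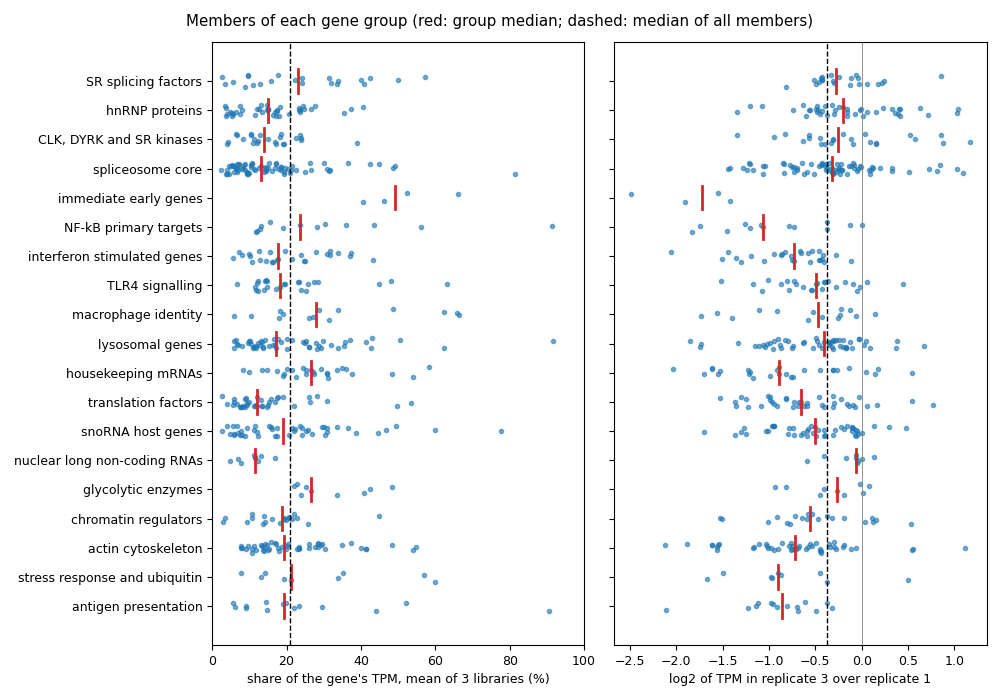
Each point is 1 member of a gene group: mean share of its gene's TPM in percent (left) and log2 of TPM in replicate 3 over replicate 1 (right); red bars are group medians, the dashed lines the medians of all 4164 members, 20.9% and -0.37. The 4 immediate early members have the lowest group median on the right panel, -1.73, and the spread of shares within each group is wide.

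The second quantification, a separate assignment of the same reads to the same transcripts, gave 5 TPM or more in all 3 libraries to 3780 members, or 90.8%. In it 5532 retained-intron transcripts, 25.3%, met that rule, so the shared ones made up 68.3% of its list. Of the 384 members not shared, 58 were under 5 TPM in every library and 2 under 1. Averaged over the 3 log2 ratios, the level of a member differed by 2-fold or less in 3919 cases (94.1%) on the log2(TPM + 0.1) scale, against 89.8% of the protein_coding transcripts that met the same rule. Across the 4164 members, which share libraries and reads, Pearson's r of the log2 values was 0.854 and Spearman's rho of the shares 0.85. For these members, which were selected on the first quantification, the second gave smaller shares, with a median of 17.4%. In it 123 members held 50% or more in every library, of which 89 were among the 187 of the first. With the rule applied to the second quantification instead, the median share was 19.0% and 285 transcripts held 50% or more.

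The members on which the quantifications differed most were ranked by the mean over libraries of the log2 ratio of TPM + 0.1. Lrp1-208, from the gene of a large endocytic receptor, was at 50.4, 26.2 and 26.2 TPM in the first and 1.74, 0.24 and 0.829 TPM in the second. Stab1-212, for a scavenger receptor, was at 23.9, 16.6 and 18.6 TPM and 0.811, 2.40 and 1.77 TPM, and Rps24-204, for a ribosomal protein, at 9.32, 9.31 and 6.43 TPM and 0.686, 0.729 and 0.665 TPM. Sugp2-209 was at 6.44, 5.88 and 5.13 TPM and 0.538, 0.981 and 0.0994 TPM. Appl2-209 was at 21.9, 11.0 and 11.3 TPM in the first and 14.4, 0 and 2.90 TPM in the second, and the 0 in replicate 2 enters its log2 ratio through the pseudocount. All 5 had no bases outside the other transcripts of their gene, and Stab1-212 also overlaps Nt5dc2 on the other strand.

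In the other direction, Ctsb-202 was at 139, 23.4 and 41.8 TPM in the first and 469.8, 387 and 342 TPM in the second, so which cathepsin B member was the most abundant depended on the table: Ctsb-203 held 62.4% ± 7.87 (SD, n = 3) in the first and 33.3% ± 2.56 (SD, n = 3) in the second. Lima1-205 was at 6.30, 9.41 and 5.39 TPM and 77.0, 103 and 79.9 TPM, Chd8-210 at 7.14, 6.90 and 7.22 TPM and 55.3, 54.3 and 55.5 TPM, and Gm43305-201 at 17.8, 13.1 and 9.90 TPM and 139.7, 107 and 92.3 TPM. Nrd1-211 is only 164 bases long and rested on 1.10, 2.00 and 2.00 estimated counts. It was at 7.02, 13.1 and 10.7 TPM in the first and 75.0, 114 and 53.8 TPM in the second.

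The agreement of the quantifications varied with how distinct the member is. The 238 members with no base of their own, outside all other transcripts of the gene, were within 2-fold in 83.6%, and the median log2 ratio of first over second was 0.49. The 1889 members with over 50% such bases were within 2-fold in 97.1%, with a median of 0.11. Short members differed more: of the 104 members of 400 bases or fewer, 72.1% were within 2-fold and the median log2 ratio was -0.54, against 98.2% and 0.24 for the 1567 members over 2000 bases. Members were selected on the first table, which favours transcripts that are high in it. Even so, 49 members were over 2-fold higher in the first quantification and 196 in the second.

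**Figure D4:**
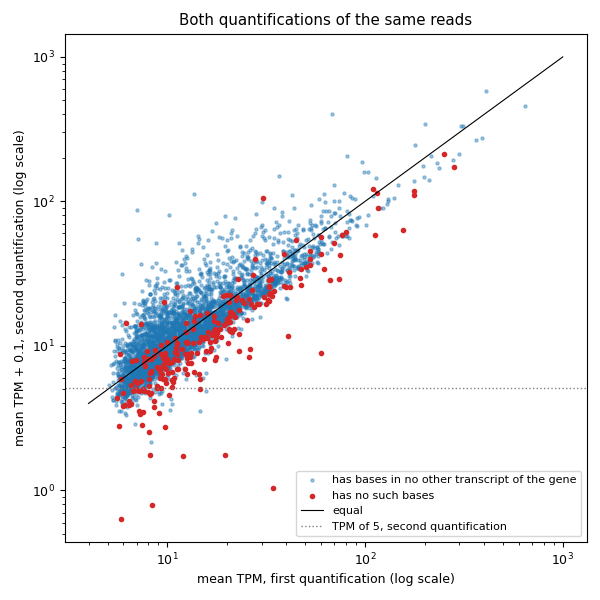
Mean TPM of each member in the first quantification (horizontal) against mean TPM + 0.1 in the second (vertical), both on log scales; red points are the 238 members with no bases of their own, the line marks equal values and the dotted line a TPM of 5. Most points follow the line, and the points far under it are mainly red.

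Between libraries, the median coefficient of variation of a member was 19.4% for TPM and 13.5% for the share. A factor common to a library moves TPM and cancels in the share. Replicate 3 was the lowest library for 2882 members and the median log2 of replicate 3 over replicate 1 was -0.37, close to the -0.44 of protein_coding transcripts at 5 TPM or more. Small structural RNAs, that is snoRNAs, scaRNAs, snRNAs and ribozymes with miscellaneous and ribosomal RNAs, held 51.5%, 62.2% and 64.6% of all TPM in replicates 1, 2 and 3. When TPM was rescaled without transcripts under 200 bases and without Gm26917, Gm42418 and Rmrp, the median of replicate 3 over replicate 1 turned to 0.30, replicate 3 was lowest for 724 of 4162 members and the median coefficient of variation of TPM was 19.0%. In the second quantification the median ratio was -0.03. The sign of the general difference between these libraries thus flips with the scaling, and differences between members were read relative to the median.

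Relative to the median of all members, the gene groups parted. The group median of the log2 ratio of replicate 3 over replicate 1, minus that of all members, was -1.36 for the 4 immediate early members, which come from 3 genes. It was -0.70 for NF-kB targets, -0.53 for the stress group, -0.52 for the housekeeping group and -0.49 for antigen presentation. These differences stay the same when a whole library is multiplied by a constant. Above the median lay nuclear long non-coding RNAs by 0.31, hnRNP genes by 0.17, the kinases of SR proteins by 0.12 and SR genes and glycolytic enzymes by 0.10 each. The other 9 groups lay between -0.36 and 0.05. The 0.31 of nuclear long non-coding RNAs rests on 9 members of 2 genes, 7 of them from Gas5. In the second quantification 5 of these 9 members reached 5 TPM in every library. For the share, the median log2 ratio of replicate 3 over 1 was -0.01 for immediate early members, -0.16 for NF-kB targets and 0.08 over all members. With 1 library for each starting amount, replicate and amount cannot be told apart.

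The median SD of a share was 2.67 points, and only 70 members had an SD over 10 points. The share was over 2-fold lower in replicate 3 than in replicate 1 for 32 members and over 2-fold higher for 58. Safb2-203, for a scaffold attachment factor, was at 7.17, 15.7 and 39.1 TPM with 2.64%, 6.35% and 15.4%, and Stxbp2-203, for a protein of granule release, at 13.6, 22.7 and 43.6 TPM with 5.0%, 14.4% and 23.2%. In the other direction, Lilrb4a-214 held 14.7%, 11.3% and 4.93%, Csf2ra-205, for a chain of the GM-CSF receptor, 18.3%, 9.43% and 6.58% and Tecpr1-211 4.43%, 6.28% and 1.32%. These members were picked for the size of their change, so their values are a description.

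**Figure D5:**
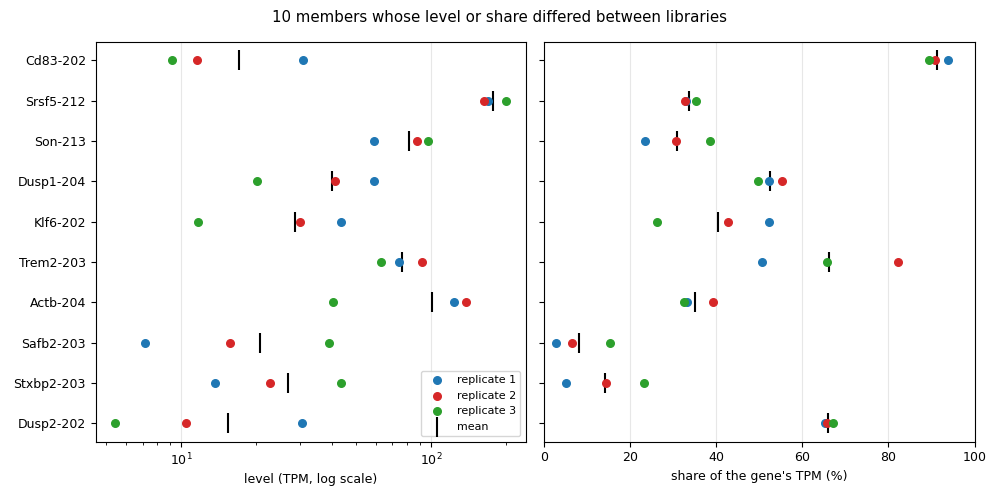
Level in TPM on a log scale (left) and share of the gene's TPM in percent (right) of 10 members in each library; points are libraries and the black bar is the mean of 3. Dusp2-202 and Cd83-202 keep their share while their level is highest in replicate 1, whereas Safb2-203, Stxbp2-203 and Klf6-202 differ in both. Trem2-203 stands out by its share, with an SD of 15.8 points.

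A typical member rested on over 100 estimated counts in each library. The lowest of its 3 estimated counts had a median of 175, and 10 members had under 10 in some library. The authors' interval for TPM had a median width of 32.7% of the posterior mean, and it was wider than the mean itself for 42 members. This interval covers read assignment within a library and not the spread between libraries. Exons of 427 members, 10.3%, overlapped an exon of a gene on the other strand, against 10.1% of the other retained-intron transcripts, and 128 overlapped one on the same strand. Reads within an overlap on opposite strands cannot be told apart unless counting used strand, and on the same strand not at all.

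Values on both sides of the threshold of 5 TPM were close together. Just inside lay Crtc3-205 at 6.39, 6.36 and 5.0 TPM, Fbf1-207 at 7.42, 5.12 and 5.0 TPM and Itsn1-213 at 10.1, 5.0 and 7.47 TPM. Just outside lay Anapc4-206 at 5.10, 6.77 and 4.99 TPM, Bfar-207 at 10.4, 7.82 and 4.99 TPM and Chuk-203 at 5.49, 4.99 and 5.50 TPM. In the second quantification Chuk-203 was at 15.6, 20.0 and 17.3 TPM. With TPM rescaled as above, 8171 retained-intron transcripts would have met the rule, among them 4162 of the members.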

How the data were processed

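Per the labels, total RNA of the chromatin fraction was sequenced from 3 libraries of 1 group. The authors deposited 2 transcript tables and 1 gene table per library, from alignments to mm10 with GENCODE M21 per the deposited readme; the program, its version and strand use were not given in the sources used here. In the files, the first transcript table gives estimated counts (expected counts), TPM, posterior mean TPM and interval bounds of TPM, per the file headers; the second gives estimated counts and TPM from the same reads. All 141767 transcripts were matched to GENCODE M21, from which exons, introns and sequences were read with Python 3.11.15 and pandas 2.3.3. Shares were computed per gene and library from TPM. An intron was contained if both its ends lay inside 1 exon of the member and flanking bases were present. The log2 ratio of tables used a pseudocount of 0.1. With 1 group and members chosen by level, no test was run and no p-value is given. Named were the 10 members highest in TPM, the 8 highest and 5 lowest in share, the 5 most discordant in each direction, 3 on each side of the threshold, the highest of each of 19 gene lists and of those with small RNA genes, and others that a list's account needed. Members and lists were chosen with earlier results of these data known. The calculations were tested on simulated data. Coordinates are 1-based. Alternatives tried are in the closing section.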

Additional observations from a re-analysis of the deposited data

How the results depend on the processing

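The number of members moved most with the threshold and the scale of TPM. It was 8513 at a threshold of 2 TPM, 1724 at 10 TPM and 8171 with TPM rescaled without short RNAs and 3 dominant transcripts, against 4164. Members with a share of 50% or more were then 315, 98 and 310, against 187, and the median share 19.3%, 22.5% and 19.4%, against 20.9%. The rule applied to the second table gave a median share of 19.0% and 285 members at 50%. With estimated counts in place of TPM, which weights long transcripts more, the median share was 12.5% and 281 members held 50% or more; with retained-intron and protein_coding transcripts alone as the denominator it was 23.3%. Thresholds and denominators move these values by construction; for the second table the cause was not tested. Leaving out 1 replicate gave 4328 to 5051 members, a median share of 20.3% to 21.4%, 215 to 258 members at 50% and 3951 to 4401 found in the second table. In all, 33 of 47 recomputed values stayed within 1.5 times the reported count or 1 SD of the median share. Alternatives chosen after seeing the data, such as 10 or more counts in every library (4154 members), were among these. No paired analysis was possible because there was 1 group.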
